A study of Mus musculus with 16 samples.

Results

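The 48 genes described here encode proteins that repair broken or mispaired DNA, or that signal its damage. They were chosen by symbol from known pathways, out of 22114 protein-coding genes counted, and fall into 5 groups: 19 genes of homologous recombination, 10 of the Fanconi anaemia pathway, 5 of mismatch repair, 10 of end joining (with Parp1 and Trp53bp1) and 4 kinases of the damage response. RNA was sequenced from DN3 thymocytes, immature T cells sorted as CD4- CD8- CD25+ CD44-, of C57BL/6 mice. In one experiment, heterozygous TetOP-H2B-GFP KI/+ mice that carried the CD2-Lmo2 transgene (Lmo2Tg), in which the T-cell promoter of CD2 drives Lmo2, were given doxycycline for 6 weeks and then left without it for 2 weeks. DN3 cells that had kept the histone label (GFPhi, 3 libraries) and cells that had diluted it by division (GFPlo, 3 libraries) were sorted from mice of this genotype, so both populations carry the transgene. In the other, total DN3 cells came from 6-week-old wild-type mice (3 libraries), p21-/- mice, which lack the cell-cycle inhibitor encoded by Cdkn1a (2 libraries), Lmo2Tg mice (2 libraries) and Lmo2Tg;p21-/- mice (2 libraries). RNA was pooled from several mice, 3 to 5 by the study's methods, and the study describes the mice of the GFP experiment as 3 separate cohorts. For the genotype libraries the labels do not say that those of a group came from separate pools, so p-values there measure only the spread between these libraries, which may be technical. Of the 3 samples labelled p21-/-, 1 was not analysed here, because no column of counts matched it.

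Library totals ran from 26861394 to 31106213 counts in the GFP experiment and from 13864936 to 16837667 in the genotype experiment, and the 48 genes together took 0.342% to 0.455% and 0.342% to 0.398% of them. Levels are given in CPM, counts scaled by TMM to a common library size. Cdkn1a was at 36.5, 37.5 and 49.0 CPM in wild-type, 14.3 and 17.7 in p21-/-, 32.8 and 26.3 in Lmo2Tg and 4.35 and 3.50 in Lmo2Tg;p21-/- libraries, so its counts were lower in each deletion but not absent. In the genotype libraries Lmo2 was at most 0.306 CPM without the transgene and at least 41.4 CPM with it. GFPhi replicate 3 stood apart from the other GFPhi libraries. It held 6.56 CPM of Cdkn1a against 35.8 and 29.9, and 285 CPM of Lmo2 against 53.8 and 29.5, while the GFPlo libraries held 8.08 to 12.02 and 35.8 to 42.3. Each GFP result is therefore given with all 6 libraries and with the 5 left without that replicate. Of the 12 markers of DN3 cells none was at 0 in every library of a group, and their summed level was 10621 to 11826 CPM without the transgene and 8116 to 9159 CPM with it in the genotype libraries. Ptcra, the invariant chain of the pre-T-cell receptor, averaged 153 CPM in wild-type and 144 in p21-/- but 40.8 in Lmo2Tg and 29.1 in Lmo2Tg;p21-/-.

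Homologous recombination repairs a double-strand break by copying the sister chromatid and is therefore used after DNA has been replicated. Brca1 and Bard1 act at the resected break, Palb2 and Brca2 load the recombinase there, and the Fanconi anaemia proteins open DNA crosslinks and hand them to the same machinery. End joining seals breaks directly at any stage of the cell cycle, through the Ku proteins Xrcc5 and Xrcc6, the kinase Prkdc and the ligase complex of Lig4 and Xrcc4, and thymocytes depend on it to rejoin their antigen receptor genes after RAG cleavage. Mismatch repair corrects replication errors, with Msh6 and Msh3 as parts of the sensors and Exo1 as the exonuclease, while Atm and Atr signal damage to Chek2 and Chek1.

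All 48 genes passed the filter on low counts in both experiments. Per kilobase of exon, a scale that allows levels to be compared between genes, the wild-type levels ranged from 1.48 ± 0.305 CPM per kb (SD, n = 3) for Rad51b, a paralog of the recombinase, to 115 ± 0.990 CPM per kb for Xrcc6, which encodes Ku70, with a median of 6.62 over the 48. Xrcc6 was the highest and Rad51b the lowest of the 48 in each of the 6 groups. In wild-type libraries Parp1, the sensor of strand breaks, followed at 99.3 ± 2.89 CPM per kb, Msh6 at 63.6 ± 1.88, Xrcc5, which encodes Ku80, at 30.2 ± 1.14 and Rad50, a part of the break-binding MRN complex, at 25.9 ± 2.53. The first 4 of these were separated by more than their spread, whereas Rad50, Lig4 (21.2 ± 0.666) and Nbn (20.5 ± 0.766) lay closer together.

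Within the groups, Rad50 was the highest and Rad51b the lowest gene of homologous recombination, Fancg (9.39 ± 0.966 CPM per kb) and Fancc (2.90 ± 0.200) framed the Fanconi genes, and Msh6 and the MutL protein gene Mlh3 (4.34 ± 0.267) framed mismatch repair. Xrcc6 and Xrcc4 (3.52 ± 0.353), the partner of Lig4, were the extremes of end joining. Of the kinases, Chek1 was the highest (16.5 ± 0.641) and Atr the lowest (3.42 ± 0.586) in wild-type and p21-/- libraries, while Atm was the highest in the 4 groups with the transgene, at 17.9 ± 2.18 CPM per kb in Lmo2Tg. The length used is the union of all annotated exons, so genes with many long isoforms are placed too low on this scale.

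**Figure D1:**
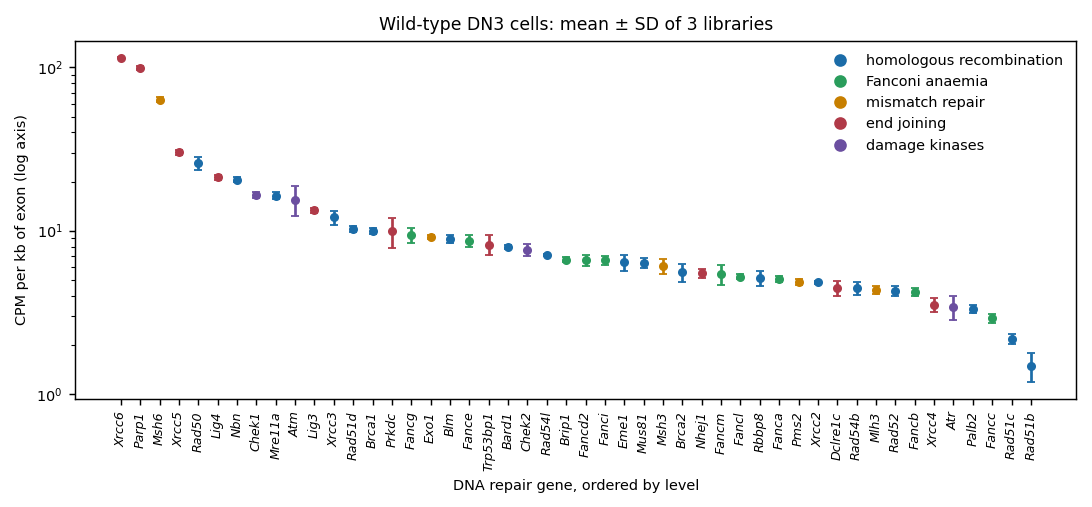
Level of each of the 48 genes per kilobase of exon in wild-type DN3 cells, on a log axis, ordered by level over all 48. Colours mark the 5 groups, points are means of 3 libraries and bars are the SD. Xrcc6 stands highest at a mean of 115 CPM per kb and Rad51b lowest at 1.48.

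**Figure D2:**
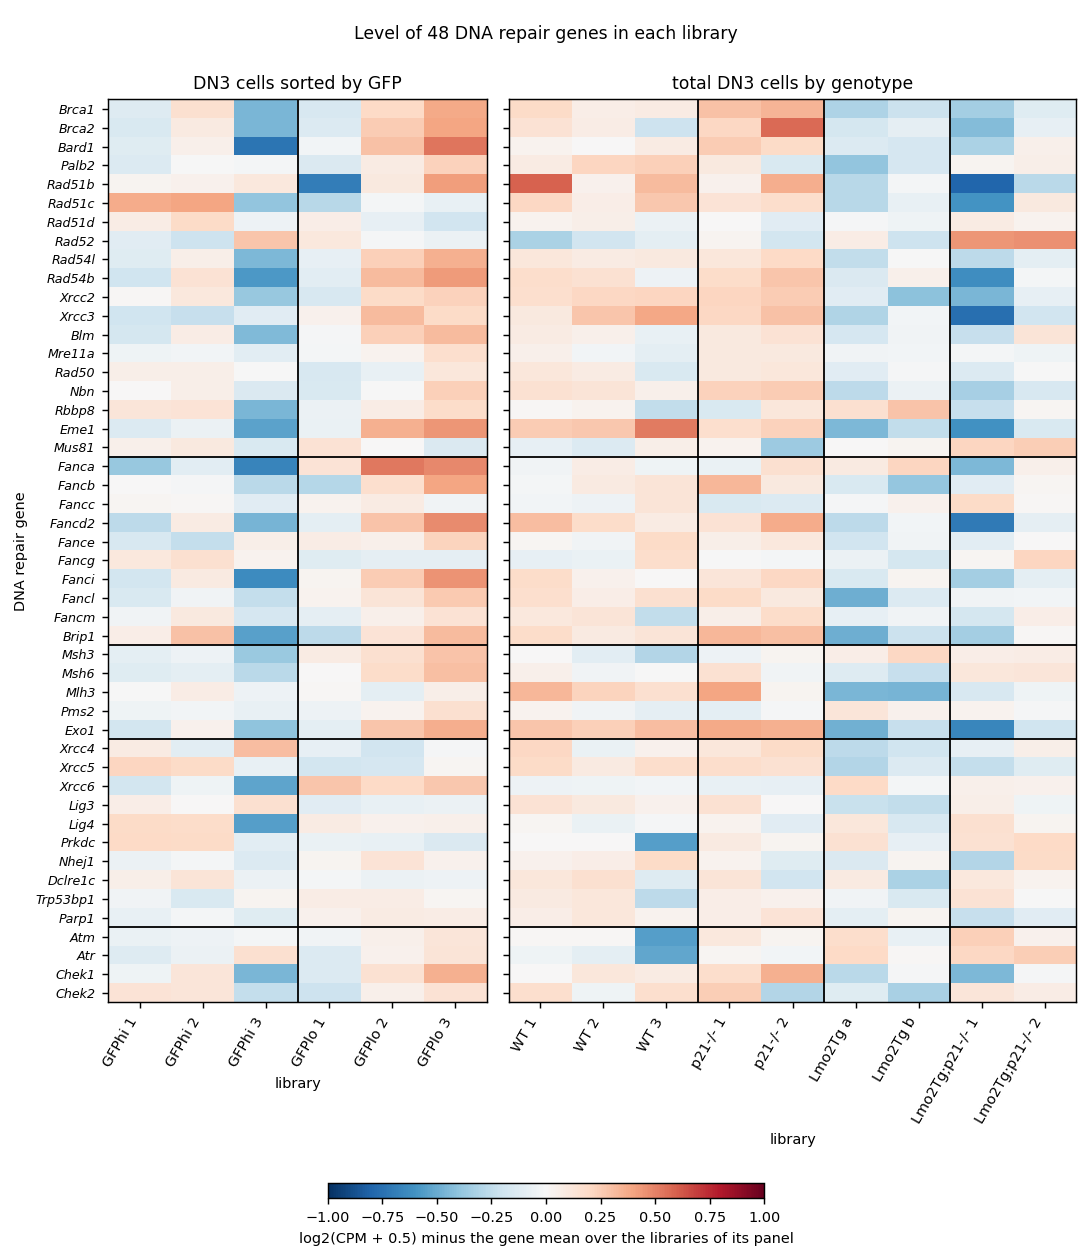
Level of each gene in each of the 15 libraries, as the log2 difference from the gene's mean within its experiment. GFPhi replicate 3 has the lowest Brca1, Bard1, Exo1 and Chek1 of its experiment, and the Lmo2Tg and Lmo2Tg;p21-/- libraries lie below wild-type for Brca1, Nbn, Exo1 and Xrcc5.

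GFPhi cells were compared with GFPlo cells to ask how label-retaining, slowly dividing cells differ from their cycling counterparts. With all 6 libraries 1 of the 48 genes was called at an adjusted p under 0.05 (quasi-likelihood test of edgeR, adjusted after Benjamini and Hochberg over 11581 genes), against 14.9% of all genes tested, 9.49% lower and 5.37% higher. At an unadjusted p under 0.05 there were 10, against 33.4% of all genes. That gene was Fanca, a core member of the Fanconi complex (chr8:123268300-123318576 on GRCm38, minus strand). The other 47 genes were mostly a little lower in GFPhi: 36 of the 48 fitted values were below 0, which was so for 47.9% of all genes, and their median was -0.12 on the log2 scale against 0.02. In 9 of the 48 every GFPhi library was below every GFPlo library and in 2 every one was above, where 21.7% and 19.6% of all genes behaved so. These are bulk samples, in which fewer cells of a kind and less RNA per cell cannot be told apart.

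Fanca was at 43.2, 52.4 and 35.5 CPM in GFPhi and at 62.0, 81.6 and 79.1 CPM in GFPlo libraries. All 3 GFPhi libraries lay below all 3 GFPlo libraries, and the log2 difference was -0.76 ± 0.17 (SE, edgeR adjusted p = 0.037). The call was lost when any 1 library but GFPhi replicates 2 or 3 was left out: the adjusted p was 0.11 without GFPhi replicate 1, and 0.051, 0.15 and 0.13 without GFPlo replicates 1, 2 and 3. Exons of Fanca and of Zfp276, on the other strand, share 920 bases, and the name of this table marks counting on the reverse strand.

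The genes with the largest fitted differences in the other groups did not pass the test. Bard1, the partner of Brca1, was at 44.2, 49.9 and 28.8 CPM in GFPhi and 47.2, 59.2 and 69.8 CPM in GFPlo libraries, which overlapped, at -0.52 ± 0.24 (edgeR adjusted p = 0.18). Exo1 was at -0.37 ± 0.16 (adjusted p = 0.17) and Chek1 at -0.25 ± 0.19 (adjusted p = 0.39), both with overlapping libraries. Brca1 was at 71.6, 87.6 and 56.9 CPM against 69.9, 89.98 and 102, Brca2 at 56.4, 66.7 and 45.6 CPM against 57.0, 74.6 and 82.5, and neither passed (-0.28 and -0.34, adjusted p = 0.37 and 0.25). In each of these genes GFPhi replicate 3 was the lowest of the 6 libraries and GFPlo replicate 3 the highest, and the same 2 libraries were the extremes of the summed S phase and mitosis markers. The sum of 20 S phase genes was 5064, 5509 and 3917 CPM in GFPhi and 5153, 6008 and 6333 in GFPlo libraries, and that of 20 mitosis genes was 3989, 4583 and 2653 against 3692, 4907 and 5772. The part of cycling cells in the recombination genes was not tested.

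Xrcc6 was at 544, 599 and 428 CPM in GFPhi and at 748, 710 and 744 CPM in GFPlo libraries, with no overlap between the groups. Its difference of -0.49 ± 0.13 narrowly missed the threshold (edgeR adjusted p = 0.053). Xrcc6 lies on chromosome 15 (81987835 to 82040085), where 90.3% of the 464 genes tested were fitted lower in GFPhi, with a median of -0.43 for the chromosome. Relative to that median Xrcc6 differed by -0.05 with 6 libraries and by 0.08 with 5. Why chromosome 15 was lower in GFPhi than in GFPlo was not tested with these counts. The study reports extra copies of this chromosome in GFPlo cells, from targeted probes, genomic PCR and exome sequencing. The part of copy number in the Xrcc6 difference was not tested here. Msh6, on chromosome 17, was at 293, 296 and 264 CPM against 318, 360 and 392, again without overlap, at -0.33 ± 0.09 (adjusted p = 0.069). The median of its chromosome was -0.15, and Msh6 lay -0.18 from it.

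Without GFPhi replicate 3 the test called 11 of the 48 genes, 6 lower and 5 higher, or 22.9%, when 41.3% of the 11745 genes tested were called, 21.7% lower and 19.5% higher. At an unadjusted p under 0.05 there were 14, against 50.7% of all genes. In 13 of the 48 both GFPhi libraries were below every GFPlo library and in 8 above, where 32.9% and 32.7% of all genes behaved so, and 30 of the fitted values were below 0, against 49% of all. The 5 that were higher in GFPhi were Prkdc, Xrcc5 and Lig4 of end joining, with Rad51c and Fancg. Those that were lower were Xrcc3, Fanca, Fance, Msh3, Msh6 and Xrcc6. No kinase was called. This comparison rests on 2 GFPhi libraries, and the choice to give it was made because the left-out library stands apart.

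Prkdc, the kinase that the Ku proteins recruit to DNA ends, was at 212 and 211 CPM in these 2 GFPhi libraries and at 177, 176 and 168 in GFPlo. The groups did not overlap, and the log2 difference was 0.29 ± 0.05 (edgeR adjusted p = 0.004). GFPhi replicate 3 held 172 CPM, within the GFPlo range, and with it the difference was 0.19 (adjusted p = 0.21). Xrcc5 was at 70.4 and 69.3 CPM against 53.3, 53.9 and 61.5, a difference of 0.32 ± 0.08 (adjusted p = 0.016), and at 57.5 CPM in GFPhi replicate 3, where it fell among the GFPlo values. The ligase gene Lig4 was at 178 and 176 CPM against 165, 160 and 161 (0.14 ± 0.04, adjusted p = 0.048), but at 106 in GFPhi replicate 3, so that its sign turned with that library (-0.08 with all 6). Of the Ku pair, then, Xrcc5 was higher and Xrcc6 lower in the same 5 libraries (-0.35 ± 0.06, adjusted p = 0.0051).

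Rad51c, another recombinase paralog, was at 12.6 and 12.9 CPM against 7.88, 9.54 and 9.18 in GFPlo, and at 7.23 in GFPhi replicate 3. Its difference was 0.53 ± 0.12 without that replicate (edgeR adjusted p = 0.012), the largest rise among the 11. Fancg was the only one of the 5 higher genes whose 3 GFPhi libraries, at 51.3, 53.5 and 48.9 CPM, all exceeded GFPlo, at 43.8, 44.9 and 44.7 (0.24 ± 0.06, adjusted p = 0.014 with 5 libraries). Xrcc3, also a recombinase paralog, was at 20.4, 19.96 and 21.7 CPM against 24.2, 29.4 and 26.9, so that GFPhi replicate 3 did not differ in it from the other 2 (-0.40 ± 0.10, adjusted p = 0.017). Fanca (-0.63 ± 0.14, adjusted p = 0.012), Fance (-0.32 ± 0.09, adjusted p = 0.025), Msh3 (-0.25 ± 0.07, adjusted p = 0.032) and Msh6 (-0.27 ± 0.09, adjusted p = 0.047) were the others that fell. Fance lies on chromosome 17 like Msh6, and relative to that chromosome's median of -0.17 the values were -0.15 and -0.10.

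Brca1 (-0.13), Brca2 (-0.21), Parp1 (-0.11), Atm (-0.10), Atr (-0.10), Chek1 (-0.09) and Chek2 (0.14) were not called with the 5 libraries (edgeR adjusted p from 0.13 to 0.62). Parp1 (-0.14), Atm (-0.09), Atr (-0.02) and Chek2 (0.02) were not called with 6 either. The S phase markers had a median of -0.11 with 5 libraries and -0.25 with 6, so Brca1, Brca2, Chek1 and these markers all moved toward 0 when the replicate was left out. Of the B-lineage markers 4 of the 7 tested were called higher in GFPhi with 6 libraries and 6 of 8 with 5, and none lower. Over all genes 5.37% were called higher and 9.49% lower with 6 libraries, and 19.5% and 21.7% with 5. Ms4a1, the gene of the B-cell antigen CD20, averaged 3.895 CPM in GFPhi against 0.0107 in GFPlo. Cd22 was at 3.498 against 0.0562 and Pax5 at 2.905 against 0.0555, and Cd79a was called too. In GFPlo these 3 means lay below 0.112 CPM, so Ms4a1, Cd22 and Pax5 passed the filter on low counts only through GFPhi. A lower call was therefore not open to them, and the count of calls is no evidence of direction. The 10 markers summed to 29.1 to 56.8 CPM in GFPhi and 24.9 to 28.5 in GFPlo libraries, and most of that was Cd79b, at means of 23.0 and 22.5. Of the 10 markers of later T cells 2 were called higher with 6 libraries, and 3 lower and 5 higher with 5. The part of these cells in the results was not tested.

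**Figure D3:**
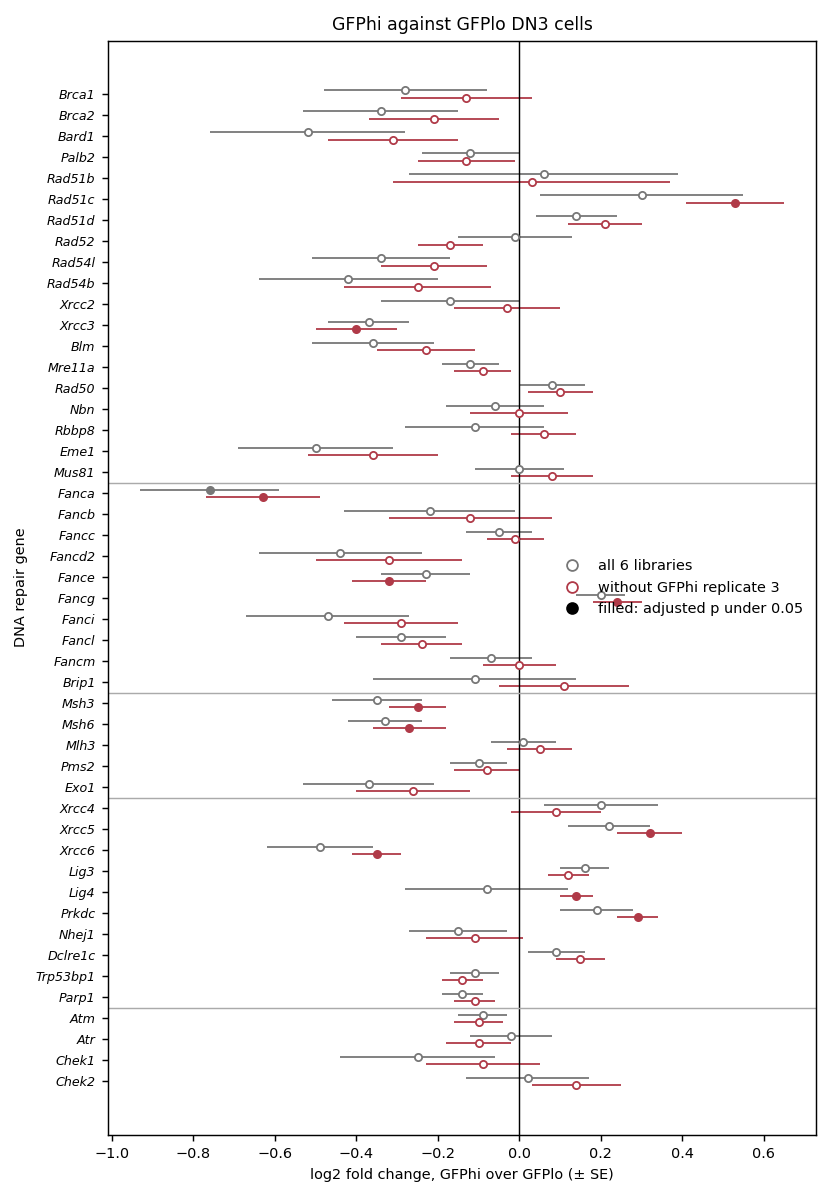
Log2 difference of GFPhi from GFPlo cells for each of the 48 genes with its SE, fitted with all 6 libraries and without GFPhi replicate 3. With 6 libraries only Fanca passed the test, at -0.76, and without the replicate Rad51c, Xrcc5, Prkdc, Fancg and Lig4 lie above 0 and Xrcc6, Fanca and Xrcc3 below it among the genes that passed.

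Lmo2Tg DN3 cells were compared with wild-type cells to ask what the transgene does in otherwise normal mice, and Lmo2Tg;p21-/- cells with p21-/- cells to ask the same without p21. The comparisons share no library. In Lmo2Tg cells 11 of the 48 genes were called lower and 1 higher. In all, 36.6% of the 11840 genes tested were called, 16.9% lower and 19.7% higher, so the share of the 48 that was lower, 22.9%, was near the background, while the share that was higher was 2.08%. In Lmo2Tg;p21-/- cells 16 of the 48 were called lower (33.3%) and 1 higher (2.08%), when 30.7% of all genes were called, 14.4% lower and 16.3% higher. At an unadjusted p under 0.05 there were 19 and 21 of the 48, against 46.7% and 42.5% of all genes. The fitted values of 37 and 30 genes were below 0, against 51.4% and 50.4% of all. Every library with the transgene was below every library without it in 25 genes and above in 6 in the first comparison (31% and 29.9% of all genes), and in 25 and 10 in the second (35.4% and 35.5%). The median of the 48 was -0.16 and -0.17 on the log2 scale, against -0.01 and 0.00 for all genes. The differences were modest: the largest fold of a called gene was 1.72, for Exo1, and none of the 48 passed a fold of 2.

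The genes called in both were Brca1, Brip1, Eme1, Exo1, Nbn, Xrcc2 and Xrcc5, and all 7 were lower. They make up 58.3% of the 12 genes called in the first comparison and 41.2% of the 17 in the second. Of the 22 genes called in either, 21 had the same sign in both, the exception being Palb2. Over all 48 genes 37 had the same sign, 28 of them lower and 9 higher, while 72.6% of all 11840 genes, called or not, did. Shared calls and the signs of called genes were not counted over all genes. Neither is therefore shown to be particular to the 48. Over the 48 genes, which are not independent replicates, the fitted values of the comparisons were related with Pearson's r of 0.66 and Spearman's rho of 0.68, and over all genes with 0.78 and 0.64.

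**Figure D4:**
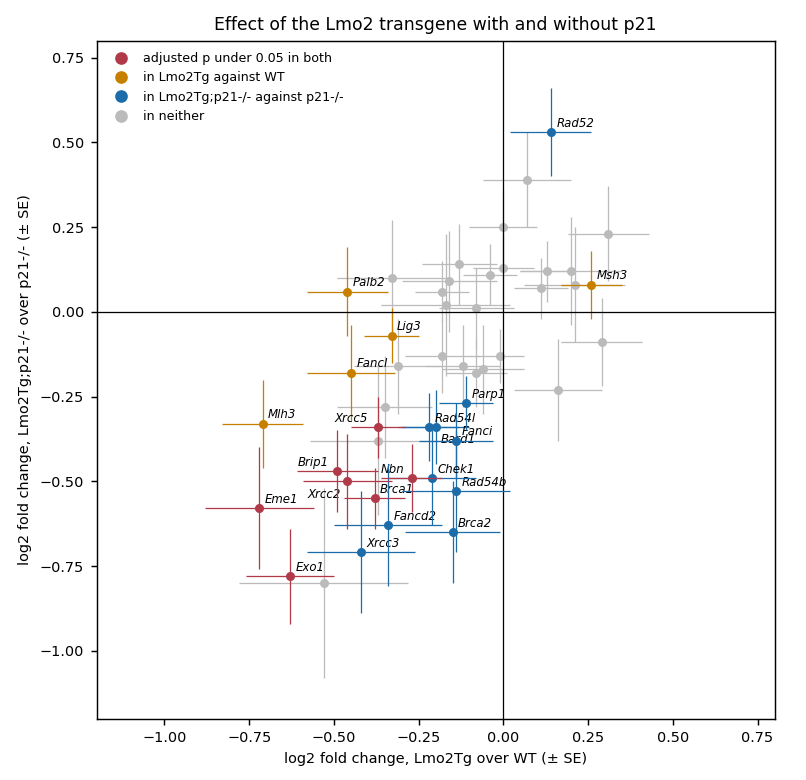
Log2 difference made by the Lmo2 transgene in p21-normal mice (Lmo2Tg against wild-type, x axis) and in p21-/- mice (Lmo2Tg;p21-/- against p21-/-, y axis), with a point for each of the 48 genes. Exo1, Eme1 and Brca1 lie far into the lower left corner, and Rad52 is the gene called higher on the y axis.

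Brca1, Nbn, Eme1 and Xrcc2 were the recombination genes called in both comparisons. Brca1 (chr11:101488764-101551955, minus strand) was at 89.7, 82.4 and 83.2 CPM in wild-type, 96.4 and 99.4 in p21-/-, 63.3 and 67.6 in Lmo2Tg and 61.7 and 72.2 in Lmo2Tg;p21-/- libraries. Every library with the transgene was below every library without it, with differences of -0.38 ± 0.09 (edgeR adjusted p = 0.0065) and -0.55 ± 0.09 (adjusted p = 0.0015). Nbn, which encodes the third subunit of the MRN complex (chr4:15957925-15992589), was at 53.4, 52.7 and 49.7, then 56.5 and 57.2, against 39.9 and 46.2, then 38.0 and 42.9 CPM in the same order of groups. These libraries also separated fully, at -0.27 ± 0.09 (adjusted p = 0.038) and -0.49 ± 0.10 (adjusted p = 0.0037). The other MRN genes, Rad50 and Mre11a, were called in no comparison.

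Eme1, a subunit of a nuclease that cuts recombination intermediates, was at 16.5, 16.6 and 19.9 CPM in wild-type and 15.5 and 16.2 in p21-/- against 9.91 and 11.5 in Lmo2Tg and 8.85 and 12.3 in Lmo2Tg;p21-/- libraries. Again no library with the transgene reached one without it (-0.72 ± 0.16, edgeR adjusted p = 0.0061, and -0.58 ± 0.18, adjusted p = 0.03). Its exons share 296 bases with Lrrc59 and Mrpl27 on the other strand, and the name of the genotype table marks counting without strand. The recombinase paralog Xrcc2 fell by 0.46 ± 0.13 and by 0.50 ± 0.14 on the log2 scale (adjusted p = 0.021 and 0.024), from 24.7 to 26.3 CPM without the transgene to 15.8 to 20.7 with it.

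The DNA upstream of Brca1 is shown because this gene was lower in each comparison of the transgene and its annotated start leaves the window free of exons, and the windows of Brip1 and Xrcc5 are shown for the same reason. Each is the 120 bases before the annotated start on GRCm38.p6, from RefSeq, written 5′ to 3′ on the strand of the gene. Capitals mark a CCAAT box in either orientation (CCAAT or ATTGG), the site of the NF-Y factor.
Brca1, chr11:101551956-101552075, minus strand: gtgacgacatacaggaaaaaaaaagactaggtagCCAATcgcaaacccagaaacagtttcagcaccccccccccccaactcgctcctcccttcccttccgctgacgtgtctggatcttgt
Brip1, chr11:86201194-86201313, minus strand: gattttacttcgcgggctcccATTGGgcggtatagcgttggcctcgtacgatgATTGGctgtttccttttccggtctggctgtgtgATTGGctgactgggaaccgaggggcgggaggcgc
Xrcc5, chr1:72307301-72307420, plus strand: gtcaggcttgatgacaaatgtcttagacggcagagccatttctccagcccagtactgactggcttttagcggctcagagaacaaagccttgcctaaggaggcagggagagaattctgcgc

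The Brip1 window holds 3 such boxes, the Brca1 window 1 and the Xrcc5 window none. RefSeq promoters were found for 39 of the 48 genes (44 entries, as some genes have several starts), and 250 bases before each start were searched on both strands. A CCAAT box stood in 22 of the 44 entries, or 50%, and in 33.8% of all 32851 promoters. An E2F-type motif, searched as TTTCCCGC, TTTCGCGC, TTTGCCGC or TTTGGCGC, stood in 6 of the 44 entries, or 13.6%, and in 1.86% of all promoters. A CHR element, TTTGAA, stood in 1 entry, that of Bard1, and in 16% of all promoters. The 6 genes with the E2F-type motif were Bard1, Brca2, Chek2, Fancg, Msh3 and Xrcc6. The 3 of them whose windows hold no exon are shown as 60 bases, with the motif in capitals in the orientation in which it was found.
Bard1, chr1:71103148-71103207, minus strand: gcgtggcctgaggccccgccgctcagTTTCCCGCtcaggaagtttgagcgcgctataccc
Brca2, chr5:150522427-150522486, plus strand: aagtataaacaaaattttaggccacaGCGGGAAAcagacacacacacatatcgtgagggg
Chek2, chr5:110839805-110839864, plus strand: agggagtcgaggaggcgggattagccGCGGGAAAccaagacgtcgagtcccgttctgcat

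These matches are letters in a sequence, not measured binding, and genes with and without them were among those called. Bard1 and Brca2 were called lower in Lmo2Tg;p21-/- cells, whereas Chek2, Fancg and Xrcc6 were not called in any genotype comparison, and Msh3 was called higher in Lmo2Tg cells.

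Palb2, which bridges Brca1 and Brca2, was at 22.7, 24.9 and 25.3 CPM in wild-type and 16.2 and 19.0 in Lmo2Tg libraries (-0.46 ± 0.12, edgeR adjusted p = 0.013), and at 23.0 and 19.2 in p21-/- and 21.8 and 22.3 in Lmo2Tg;p21-/- libraries, which overlapped. Brca2 (chr5:150522630-150570329) was at 83.5, 79.1 and 65.1, then 87.2 and 112, against 66.5 and 70.8, then 55.5 and 71.2 CPM. It was called in the p21-/- background (-0.65 ± 0.15, adjusted p = 0.0095) and not in the other (-0.15, adjusted p = 0.45), and the difference between those, -0.50, did not pass the test either (adjusted p = 0.24). Wild-type replicate 3 was the lowest wild-type library for this long transcript.

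In Lmo2Tg;p21-/- cells the recombination genes Bard1 (-0.34 ± 0.11, edgeR adjusted p = 0.04), Rad54l (-0.34 ± 0.10, adjusted p = 0.026), Rad54b (-0.53 ± 0.18, adjusted p = 0.045) and Xrcc3 (-0.71 ± 0.18, adjusted p = 0.012) also fell. Without Lmo2Tg;p21-/- replicate 1 none of the 4 was called, at -0.18, -0.27, -0.27 and -0.46 in this order (edgeR adjusted p = 0.28, 0.18, 0.3 and 0.092), and without replicate 2 they were at -0.55, -0.43, -0.88 and -1.04. Rad54l and Rad54b encode motor proteins that act with the recombinase. Exons of Rad54l share 1184 bases with Lrrc41 on the other strand and those of Rad54b share 2068 with Fsbp on the same strand, so these values are uncertain. Rad51b had the largest fitted difference of the recombination genes, -0.80 ± 0.28, but was not called (adjusted p = 0.054) and stood at 2.28 to 5.70 CPM in the 4 libraries. Rad52, which anneals single strands, was the only one of the 48 called higher: it was at 28.8 and 24.8 CPM in p21-/- and at 38.7 and 38.9 in Lmo2Tg;p21-/- libraries (0.53 ± 0.13, adjusted p = 0.0092). As a group, 5 of the 19 recombination genes were called lower and none higher in Lmo2Tg (median -0.20), and 9 were called lower and 1 higher in Lmo2Tg;p21-/- cells (median -0.34), where 16.9% and 14.4% of all genes were called lower.

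Of the 10 Fanconi genes 2 were called lower in Lmo2Tg cells and 3 in Lmo2Tg;p21-/- cells, where 16.9% and 14.4% of all genes were, and none was called higher. Brip1, a helicase that binds Brca1 (chr11:86058138-86201193, minus strand), was at 51.4, 47.9 and 49.4 CPM in wild-type and 56.7 and 55.5 in p21-/- libraries. It was at 31.9 and 38.8 CPM in Lmo2Tg and 35.5 and 45.3 in Lmo2Tg;p21-/- libraries, all below those without the transgene (-0.49 ± 0.12, edgeR adjusted p = 0.0081, and -0.47 ± 0.12, adjusted p = 0.015). Fancl, the ubiquitin ligase of the pathway, was at 18.1, 16.9 and 18.0 CPM in wild-type and at 11.3 and 14.6 in Lmo2Tg libraries, where it fell (-0.45 ± 0.13, adjusted p = 0.021), and it shares 462 exon bases with Vrk2 on the other strand.

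The ligase's targets Fancd2 and Fanci were called in the p21-/- background. Fancd2 was at 50.5 and 59.2 CPM in p21-/- and at 27.8 and 43.0 in Lmo2Tg;p21-/- libraries (-0.63 ± 0.18, edgeR adjusted p = 0.021). The 2 groups did not overlap, but the Lmo2Tg;p21-/- libraries lay further from each other than the p21-/- libraries did. Fanci was at 39.1 and 41.7 against 28.4 and 33.7 CPM (-0.38 ± 0.11, adjusted p = 0.029). The values of Fancd2 and Fanci are uncertain by 257 and 921 exon bases shared with Fancd2os and Polg on the other strand.

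In mismatch repair Exo1 had the largest fold of the genes called. Exo1 (chr1:175880581-175913489) was at 77.6, 75.3 and 79.4 CPM in wild-type and 83.2 and 82.2 in p21-/- libraries. It was at 45.6 and 54.6 CPM in Lmo2Tg and 40.5 and 55.7 in Lmo2Tg;p21-/- libraries. The lowest value without the transgene was above the highest with it, and the differences were -0.63 ± 0.13 (edgeR adjusted p = 0.0029) and -0.78 ± 0.14 (adjusted p = 0.0015). Mlh3, a partner of the mismatch endonuclease (chr12:85234520-85270599, minus strand), was at 35.0, 32.4 and 31.0 CPM in wild-type and 20.04 and 19.97 in Lmo2Tg libraries (-0.71 ± 0.12, adjusted p = 0.0013). In p21-/- libraries it was at 36.6 and 28.2 and in Lmo2Tg;p21-/- libraries at 24.8 and 26.9 CPM, and the difference was not called.

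Msh3 was the only one of the 48 called higher in Lmo2Tg cells (74.8, 69.1 and 60.6 against 77.8 and 85.9 CPM, 0.26 ± 0.09, edgeR adjusted p = 0.049). That call was lost without wild-type replicate 2 (adjusted p = 0.089), wild-type replicate 3 (0.096), Lmo2Tg library a (0.065) or Lmo2Tg library b (0.26). Msh6 was at 285, 269 and 275 CPM in wild-type, 307 and 269 in p21-/-, 252 and 235 in Lmo2Tg and 298 and 301 in Lmo2Tg;p21-/- libraries, and was not called in either comparison (-0.18, adjusted p = 0.094, and 0.06, adjusted p = 0.65).

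The Ku genes differed from each other here too. Xrcc5 (chr1:72307421-72394952) was at 79.4, 74.0 and 78.4 CPM in wild-type, 78.5 and 77.4 in p21-/-, 56.7 and 63.2 in Lmo2Tg and 58.8 and 64.0 in Lmo2Tg;p21-/- libraries. The libraries with the transgene were all lower (-0.37 ± 0.08, edgeR adjusted p = 0.0052, and -0.34 ± 0.09, adjusted p = 0.013). Xrcc6 was at 510, 513 and 518, then 502 and 500, against 605 and 521, then 548 and 543 CPM. It was not called (0.13 and 0.12, edgeR adjusted p = 0.21 and 0.3). The median of its chromosome, 15, was 0.13 and 0.09 in these comparisons, so Xrcc6 lay near it in both.

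Lig3, the ligase of alternative end joining, was at 100, 97.4 and 94.0 CPM in wild-type and at 77.9 and 76.8 in Lmo2Tg libraries (-0.33 ± 0.08, edgeR adjusted p = 0.007). It was at 101 and 91.3 in p21-/- and 94.9 and 88.4 in Lmo2Tg;p21-/- libraries, which overlapped, and 1826 of its exon bases are shared with Rffl on the other strand. Parp1 was at 523 and 548 CPM in p21-/- and 425 and 461 in Lmo2Tg;p21-/- libraries, and its fall of 0.27 ± 0.08 on the log2 scale was called (adjusted p = 0.029), whereas in Lmo2Tg it was at -0.11 (adjusted p = 0.3). Prkdc was at 0.20 and 0.12 and passed in neither (adjusted p = 0.32 and 0.6). In all, 2 of the 10 end-joining genes were called lower in each comparison, against 16.9% and 14.4% of all genes, and none was called higher, with group medians of -0.13 and 0.02.

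Of the 4 kinases Chek1 was called once and the others were not. Chek1, which holds cells with unfinished replication out of mitosis (chr9:36708482-36727065, minus strand), was at 82.6 and 93.7 CPM in p21-/- and at 53.2 and 72.3 in Lmo2Tg;p21-/- libraries (-0.49 ± 0.14, edgeR adjusted p = 0.022). In wild-type it was at 73.3, 79.1 and 77.4 and in Lmo2Tg at 60.6 and 72.2 CPM, without overlap but not called (-0.21, adjusted p = 0.23). Atm, Atr and Chek2 were called in no comparison. Their values in Lmo2Tg were 0.21, 0.31 and -0.33 (adjusted p = 0.31, 0.071 and 0.13), and in Lmo2Tg;p21-/- cells 0.08, 0.23 and 0.10 (adjusted p = 0.76, 0.22 and 0.7).

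**Figure D5:**
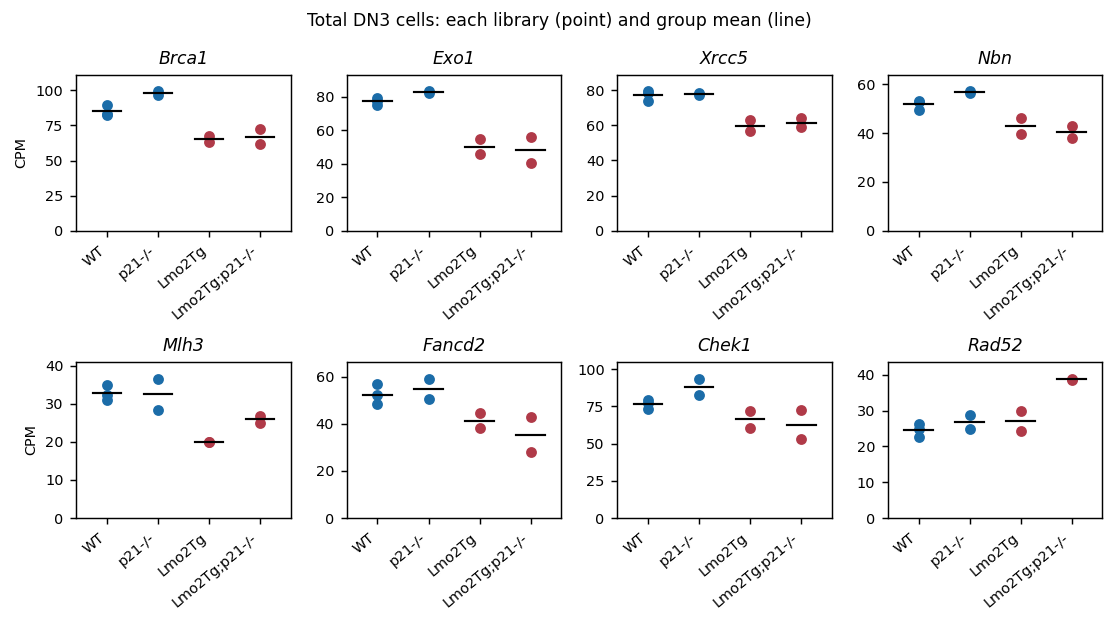
CPM of Brca1, Exo1, Xrcc5, Nbn, Mlh3, Fancd2, Chek1 and Rad52 in each genotype library, with the group mean. For Brca1, Exo1, Xrcc5 and Nbn no library with the transgene reaches one without it, while Rad52 is highest in the Lmo2Tg;p21-/- libraries, at 38.7 and 38.9 CPM.

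How many genes were called depended on single libraries. The share of all genes called was not counted when a genotype library was left out. These counts therefore do not tell a change in the 48 genes from one over all genes. In Lmo2Tg against wild-type, 4 of the 48 were called without Lmo2Tg library a, and 9 to 11 without any other library. Mlh3, Exo1 and Lig3 were called in each of those 5 fits. Without Lmo2Tg library a the adjusted p was 0.061 for Brca1, 0.31 for Nbn, 0.056 for Eme1, 0.093 for Brip1 and 0.068 for Xrcc5. In Lmo2Tg;p21-/- against p21-/-, 3 were called without Lmo2Tg;p21-/- replicate 1, 4 without p21-/- replicate 2, 9 without p21-/- replicate 1 and 21 without Lmo2Tg;p21-/- replicate 2. Brca1, Nbn and Exo1 were called in each of the 4 fits and were the 3 left without Lmo2Tg;p21-/- replicate 1. Lmo2Tg;p21-/- replicate 1 was lower than replicate 2 in 37 of the 48 genes, by a median of -0.13, and in the S phase and mitosis sums as well.

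Markers of cycling cells and of other cell types were counted in the same comparisons. Over all genes 16.9% were called lower and 19.7% higher in Lmo2Tg, and 14.4% and 16.3% in Lmo2Tg;p21-/- cells. The 20 S phase genes summed to 6361, 6355 and 6975 CPM in wild-type, 6427 and 6890 in p21-/-, 5191 and 5997 in Lmo2Tg and 4360 and 5440 in Lmo2Tg;p21-/- libraries. The 20 mitosis genes summed to 4755, 4492 and 4185, 4762 and 5459, 3634 and 4537, and 2931 and 4107 CPM. Of the S phase genes 3 were called lower in Lmo2Tg (median -0.21) and 15 in Lmo2Tg;p21-/- cells (median -0.43). Of the mitosis genes 1 and 13 were (medians -0.19 and -0.53), with none higher in either list. The Lmo2Tg shares, 15% and 5%, were below that of all genes, and the Lmo2Tg;p21-/- shares, 75% and 65%, were above it. The part of cycling cells in the lower recombination and Fanconi genes was not tested. Of the 12 DN3 markers 8 were called lower in each comparison, with 2 and 1 higher, among them the recombinase gene Rag1 at -1.10 and -1.11. Of the 10 markers of later T cells 4 were called lower and 5 higher in Lmo2Tg, and 3 and 4 in Lmo2Tg;p21-/- cells, and they summed to 1032 to 1200 CPM without the transgene and 1324 to 1694 with it. Of 7 myeloid markers tested 3 were called higher in each, among them Mpo (5.19 and 2.06) and Itgam (1.69 and 1.43). Lyz2, also of that list, was called lower in Lmo2Tg cells (-1.40, edgeR adjusted p = 0.00011). No myeloid marker was called lower in Lmo2Tg;p21-/- cells. The myeloid sums were 18.6 to 27.9 CPM without the transgene and 27.7 to 40.7 with it. Of 5 stromal markers tested 2 were called lower in each, Epcam (-1.46 and -1.61) and Cdh5, and Pecam1 was called higher (0.48 and 0.79), with sums of 186 to 207 and 221 to 285 CPM. The part of these cells in the results was not tested. The summed p53 targets were 682 to 732 CPM in wild-type, 643 to 717 in p21-/-, 903 and 1011 in Lmo2Tg and 1011 and 1030 in Lmo2Tg;p21-/- libraries.

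Wild-type replicate 3 bears on the long genes. Relative to the other wild-type libraries, genes with 10000 or more exon bases were lower in it by a median of -0.21 (963 genes), and genes with under 3000 were at 0.18 (2027 genes). The 8 members of that length were lower in it by a median of -0.36, with Atm and Prkdc both at -0.56, Atr at -0.45 and Brca2 at -0.32. Without that library the Lmo2Tg differences were 0.05 for Atm, 0.04 for Prkdc, 0.18 for Atr (adjusted p = 0.11) and 0.19 for Msh3 (adjusted p = 0.096).

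The loss of p21 was then compared with its presence, first in mice without the transgene. None of the 48 genes was called in p21-/- against wild-type by edgeR, DESeq2 or limma-voom, when 0.11% of the 11840 genes were called by edgeR. At an unadjusted p under 0.05 there were 2, Brca1 (0.20) and Brca2 (0.39 ± 0.14), both with adjusted p = 0.98, while 3.3% of all genes passed that mark. The p21-/- libraries were all below the wild-type libraries in 4 of the 48 and all above in 14 (9.62% and 9.91% of all genes), and 17 fitted values were below 0, against 50.2% of all. The largest fitted differences elsewhere were 0.18 ± 0.11 for Brip1, 0.12 ± 0.09 for Msh3, 0.22 ± 0.15 for Prkdc and 0.22 ± 0.15 for Atm, and the median of the 48 was 0.06. Without wild-type replicate 3, Brca2 was at 0.29, Prkdc at 0.05 and Atm at 0.05. Xrcc5 (0.01), Xrcc6 (-0.04), Parp1 (0.03), Msh6 (0.06), Atr (0.20), Chek1 (0.20) and Chek2 (-0.10) were not called either.

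With the transgene, 1 of the 48 genes was called in Lmo2Tg;p21-/- against Lmo2Tg cells, where 6.94% of all genes were, 3.59% lower and 3.35% higher. At an unadjusted p under 0.05 there were 7, against 25.5% of all genes. It was Rad52 (chr6:119902698-119922828), at 29.9 and 24.4 CPM in Lmo2Tg and 38.7 and 38.9 in Lmo2Tg;p21-/- libraries (0.52 ± 0.13, edgeR adjusted p = 0.038). The groups did not overlap. The call was lost without Lmo2Tg library b (0.38, adjusted p = 0.22) and without either Lmo2Tg;p21-/- library (adjusted p = 0.19 and 0.1), and when only these 2 groups were fitted (adjusted p = 0.084). In 15 of the 48 both Lmo2Tg;p21-/- libraries were above both Lmo2Tg libraries and in 4 below, where 29% and 25.7% of all genes behaved so, and 20 fitted values were below 0, against 47.3% of all.

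Genes with the largest fitted differences in their groups were Fanca (-0.33, edgeR adjusted p = 0.19), Mlh3 (0.37 ± 0.13, adjusted p = 0.12), Lig3 (0.24, adjusted p = 0.1) and Chek2 (0.33, adjusted p = 0.27). Msh6 was at 0.30 ± 0.09 (adjusted p = 0.064), and its 298 and 301 CPM lay above the 252 and 235 CPM of Lmo2Tg. Brca1 (0.03), Brca2 (-0.11), Xrcc5 (0.04), Xrcc6 (-0.05), Prkdc (0.14), Parp1 (-0.14), Atm (0.09), Atr (0.12) and Chek1 (-0.08) were not called.

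The test of whether the effect of p21 loss differed between mice with and without the transgene, which is the same as whether the effect of the transgene differed between p21 backgrounds, called none of the 48 by edgeR, DESeq2 or limma-voom, and 1.38% of all genes by edgeR. At an unadjusted p under 0.05 there were 4: Brca2 (-0.50), Palb2 (0.53 ± 0.18, edgeR adjusted p = 0.16), Rad52 (0.39) and Lig3 (0.26, adjusted p = 0.26), against 18.1% of all genes, and 27 fitted values were below 0, against 48.3% of all. Mlh3 was at 0.39 (adjusted p = 0.28), Fanca at -0.38 (adjusted p = 0.34) and Chek2 at 0.43 ± 0.23 (adjusted p = 0.36). A gene called in Lmo2Tg alone or in Lmo2Tg;p21-/- alone was therefore not shown to respond to the transgene differently.

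Over the 5 comparisons of groups with all their libraries 23 of the 48 genes were called at least once, and 30 when the 5-library GFP comparison is counted. The share of all genes called at least once was not counted. Single comparisons called up to 36.6% of all genes, and the 5-library one 41.3%. The counts of 23 and 30 are therefore not shown to be particular to the 48. The 18 genes called in none were Rad51b, Rad51d, Blm, Mre11a, Rad50, Rbbp8 and Mus81 of recombination, Fancb, Fancc and Fancm, Pms2, the end-joining genes Xrcc4, Nhej1, Dclre1c and Trp53bp1, and Atm, Atr and Chek2.

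The other genes of these pathways, taken from lists of known members, were counted in the same way. Over all genes 16.9% were called lower and 19.7% higher in Lmo2Tg cells, and 14.4% and 16.3% in Lmo2Tg;p21-/- cells. Of 44 further recombination and Fanconi genes 13 were called lower and 2 higher in Lmo2Tg cells, and 13 and 3 in Lmo2Tg;p21-/- cells. Those with the smallest p in Lmo2Tg were Rmi2 (-0.71), a partner of the Blm helicase, the nuclease gene Dna2 (-0.55), Fignl1 (-0.81) and Sfr1 (0.44). Of 16 further mismatch repair genes, which include the replication clamp, its loaders and polymerase subunits, 4 were called lower and 1 higher in Lmo2Tg and 11 lower and none higher in Lmo2Tg;p21-/- cells. Pold2 (-0.54), a subunit of DNA polymerase delta, was among them in Lmo2Tg.

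Of 19 further genes listed with end joining 4 were called lower and none higher in Lmo2Tg cells, against 16.9% and 19.7% of all genes. In Lmo2Tg;p21-/- cells 4 were lower and 2 higher, against 14.4% and 16.3%. Dntt, the polymerase that adds bases at antigen receptor joins, was at -0.81 and -0.54. Of 26 further signalling genes 6 were called lower and 4 higher, and 6 lower and 2 higher, with the phosphatase gene Cdc25b at 1.17 in Lmo2Tg. In GFPhi cells, with 6 libraries, 2 of the 44, 2 of the 16 and 4 of the 26 were called lower. None of these 3 lists had a gene called higher. Among the lower genes were Recql4 (-0.86), Pold1 (-0.36) and Rad1 (-0.60). Of the 19 listed with end joining 1 was called higher, the nuclease gene Dclre1a (1.09). A place on this list is not evidence that a gene acts in end joining. Over all genes 9.49% were called lower and 5.37% higher. With 5 libraries 3 of the 44 were called lower and 5 higher, 3 and none of the 16, 8 and 1 of the 26, and 1 and 4 of the 19, when 21.7% and 19.5% of all genes were. Loss of p21 without the transgene left none of the 4 lists with a called gene by edgeR (the 2 fits by other tools were read for the 48 genes only), and at an unadjusted p under 0.05 there was 1 gene in each list but mismatch repair, which had 0.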

How the data were processed

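For each experiment the deposited table holds raw read counts of protein-coding genes, as whole numbers that the authors had not normalized. The submitters' processing notes name STAR 2.4.2a, featureCounts, limma and the build mm10, and the names of the tables mark counting on the reverse strand for the GFP libraries and without strand for the genotypes. Groups came from the sample labels. The numbers in the column names of the Lmo2Tg libraries could not be tied to single samples, so these are called a and b. Of the 3 samples labelled p21-/-, 1 was not analysed here because no column matched it, and 1 column, named like those of Lmo2Tg;p21-/- but with a number that no label of that group carries, was not used.

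Counts were scaled by TMM and tested with edgeR 4.0.16 in R 4.3.3 (quasi-likelihood test, filterByExpr with a minimum count of 10 and a minimum total of 15, Benjamini-Hochberg adjustment over all genes tested). GFPhi was tested against GFPlo in 6 libraries, and the genotypes in a fit of all 9. A gene was called at an adjusted p under 0.05. Depth sets the precision: 3 counts equal at most 0.112 CPM in the GFP and 0.216 CPM in the genotype libraries. Levels per kilobase used exon lengths of GENCODE M21, to which 98.2% of genes matched. Alternatives were RLE scaling, other filters, DESeq2 1.42.0, limma-voom (3.58.1), other thresholds, chromosomes 2, 15 and 17 left out of the scaling, the replicate number as a block and each library left out. The tests were tested on simulated data.

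Of the 48 genes, those given with values were the ones called, in each of the 5 groups the gene with the largest difference in a comparison and those with the highest and lowest level per kilobase, and always Brca1, Brca2, Msh6, Prkdc, Xrcc5, Xrcc6, Parp1, Atm, Atr, Chek1 and Chek2. Genes of other lists were taken from the 4 with the smallest p. The 48 genes and the lists were chosen with earlier results of these data known. The labels do not say that replicate numbers pair the samples, and no blocked fit is a main result.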

Additional observations from a re-analysis of the deposited data

How the results depend on the processing

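With GFPhi against GFPlo, where 1 of the 48 genes was called, DESeq2 called 7 (6 lower, 1 higher), limma-voom 2 and scaling without chromosomes 2, 15 and 17 also 2. Of the alternatives in this section, the share of all genes called was counted only for edgeR without GFPhi replicate 3 (41.3%). The other counts do not tell a change in the 48 genes from one over all genes. At an adjusted p under 0.01, and with a fold above 2, 0 were called. Leaving out 1 library gave 0 to 11 calls and a median from -0.17 to -0.08. Without GFPhi replicate 3, limma-voom called 10 and DESeq2 11, alternatives chosen after seeing the data. Of the named genes whose calls were recomputed, only Lig4 turned its sign: from -0.08 to 0.14 without GFPhi replicate 3 (-0.19 to 0.14 over the libraries left out), and then 0.14 by limma-voom and 0.13 by DESeq2. The cause was not tested.

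For Lmo2Tg against wild-type, 7 of the 12 calls were left at an adjusted p under 0.01 and 0 with a fold above 2. Leaving out 1 library gave 4 to 11 calls and a median from -0.21 to -0.12. For Lmo2Tg;p21-/- against p21-/-, 5 of the 17 were left at 0.01 and 0 with a fold above 2, and leaving out 1 library gave 3 to 21 calls and a median from -0.27 to -0.10. For Lmo2Tg;p21-/- against Lmo2Tg, DESeq2 called 2, and a fit of only these 2 groups, an adjusted p under 0.01 and a fold above 2 left 0. Leaving out 1 library gave 0 to 1 calls and a median from -0.05 to 0.11. For p21-/- against wild-type and for the interaction 0 were called in every setting run, with medians from 0.03 to 0.07 and from -0.12 to 0.03 when 1 library was left out. The cause of these shifts was not tested.

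Same-numbered GFP libraries showed little joint deviation from their group means (r = 0.0702, -0.0793 and 0.0989). The values were -0.237 and 0.303 for p21-/- and wild-type, and 0.052 and 0.052 for Lmo2Tg;p21-/- and p21-/-. In a group of 2 libraries the deviations are exact opposites, so these genotype values are not separate and cannot show whether libraries pair. With the replicate number as a block, 0 genes were called in GFPhi, where Fanca had an adjusted p of 0.078, 18 in Lmo2Tg;p21-/- against p21-/- and 0 in p21-/- against wild-type, whose median was 0.03. No paired analysis was possible for comparisons with Lmo2Tg because the numbers in its column names could not be tied to single samples.

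Depth is no strong limit for most of the 48, but Rad51b, Nhej1 and Rad51c, at 2.07 to 12.9 CPM, carry the largest counting error. The labels give no sort or sequencing day, so such batches could not be examined. The 5 genes tested on chromosome Y had a median log2 difference of 2.66 in GFPhi against GFPlo (3.27 without GFPhi replicate 3). It was 1.47 in Lmo2Tg and -0.84 in p21-/- against wild-type. In Lmo2Tg;p21-/- it was 2.13 against p21-/- and -0.24 against Lmo2Tg. The part of the sex of the pooled mice in the results was not tested.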

Other observations

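Several of the 48 genes share an upstream region with a neighbour that starts on the other strand, and the neighbours' values are given here as measured. Brca1 starts 194 bases from Nbr1, and in Lmo2Tg;p21-/- against p21-/- cells Brca1 was at -0.55 on the log2 scale while Nbr1, an autophagy receptor, was at 0.29 (edgeR adjusted p = 0.059). Prkdc starts 466 bases from Mcm4, a subunit of the replicative helicase, and the values were 0.12 and -0.40, of which that of Mcm4 passed the test (adjusted p = 0.013). In both pairs the fitted values differed in sign.

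Xrcc3 starts 297 bases from Zfyve21, and both fell in Lmo2Tg;p21-/- cells, by 0.71 and 0.72 on the log2 scale (edgeR adjusted p = 0.012 and 0.045), while in Lmo2Tg cells Zfyve21 was at -1.37 (adjusted p = 0.0014) and Xrcc3 at -0.42 (adjusted p = 0.06). Fancd2 starts 30 bases from Emc3, with -0.63 and -0.18 (adjusted p = 0.14 for Emc3) in Lmo2Tg;p21-/- cells. Lig4 starts 21 bases from Abhd13, and in Lmo2Tg cells Lig4 was at 0.00 while Abhd13 rose by 0.42 (adjusted p = 0.0015). These pairs were chosen after their values were seen, and the genotype table was counted without strand.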
